A study of Mus musculus with 8 samples.

Results

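The comparison set embryoid bodies after 2 days with Oct6 switched on against control embryoid bodies after 4 days, across the genes of the deposited expression table. Its genes were all those reaching 1 FPKM in either of the 2 libraries compared, which gave 12810 of the 22558 genes listed; FPKM is the fragment count scaled to transcript length and library size. One side was embryonic stem cells carrying inducible Oct6, treated with doxycycline and harvested as day 2 embryoid bodies (induced day 2), and the other side was the control culture harvested as day 4 embryoid bodies (control day 4). Both sides came from mouse stem cells for which the protocol names the lines R1 and R1/E, kept on feeder cells before differentiation. Of 8 samples, 6 were RNA libraries covering both arms on days 2, 4 and 6, and the others were a ChIP for Oct6 in cells overexpressing it on day 4 and the matching input. The labels do not say which line gave which arm, and the treatment text does not settle whether control cells also received doxycycline. The protocol describes a serum-free neural differentiation, while the library titles begin with fbs, a prefix that no label explains. Each side was 1 library, so no difference below has a replicate check and no test was made. Day and arm both differ between the 2 libraries, so values of control day 2, which shares the day of one and the arm of the other, are given beside many results. Without replicates, how far such a split holds was not tested.

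Oct6, encoded by Pou3f1, belongs to the class III POU factors, which bind DNA through a POU-specific domain and a homeodomain and whose classic site is the octamer. In the embryo it marks the epiblast before gastrulation, later the anterior neural plate and then differentiating neurons and Schwann cells. Embryoid bodies run through a loosely similar course: naive pluripotency genes give way to those of the primed epiblast, some cells enter a primitive streak programme and form mesoderm and endoderm, and cells shielded from BMP, Nodal and Wnt signals turn to neural fates. A control library at day 4 therefore serves as a yardstick of that course, against which an earlier induced library can lie level, above or below.

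Most genes of early induced cells lay near their control day 4 level, while most expressed neuronal factors and naive pluripotency genes lay at least 2-fold above it and most expressed primitive streak and endoderm genes at least 2-fold below it. Most of the higher neuronal factors reached 1 FPKM only in the induced library, and several of the lower streak genes only in control day 4. Of the 12810 genes, 11224 (87.6%) lay within 2-fold of control day 4, a difference of less than 1 in log2(FPKM + 1), the scale used for every difference here. In the induced day 2 library 1011 genes, 7.89% of those compared, were at least 2-fold higher, whereas 575 genes, 4.49%, were at least 2-fold lower. The median difference over all of them was 0.07. Higher genes made up 63.7% of those at least 2-fold apart, 56.7% when the libraries were scaled by their median ratio and 53.3% when their distributions were made equal (quantile normalisation). Against control day 2 the same induced library had 1453 genes at least 2-fold apart of 12586, of which 1223 were higher and 230 lower. The median difference from control day 2 was 0.17. Against control day 6 the induced library had 2030 of 13086 genes at least 2-fold apart. The median size of the difference was 0.34 from control day 2, 0.31 from control day 4 and 0.32 from control day 6, so that by this measure the 3 control days lay about equally far away, while by the count of genes at least 2-fold apart control day 2 lay nearest. Differences also moved with level: the median was 0.12 among 5770 genes with a mean FPKM of 1 to 10 and -0.35 among the 119 genes with a mean of 500 or more. These 2 medians were 0.05 and -0.45 with median ratio scaling, and -0.01 and 0 after quantile normalisation. One fragment was worth 1.88 times as much FPKM in the induced day 2 library as in control day 4, as estimated from the steps between low values, which corresponds to about 27300000 fragments in induced day 2 against 51400000 in control day 4.

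**Figure D1:**
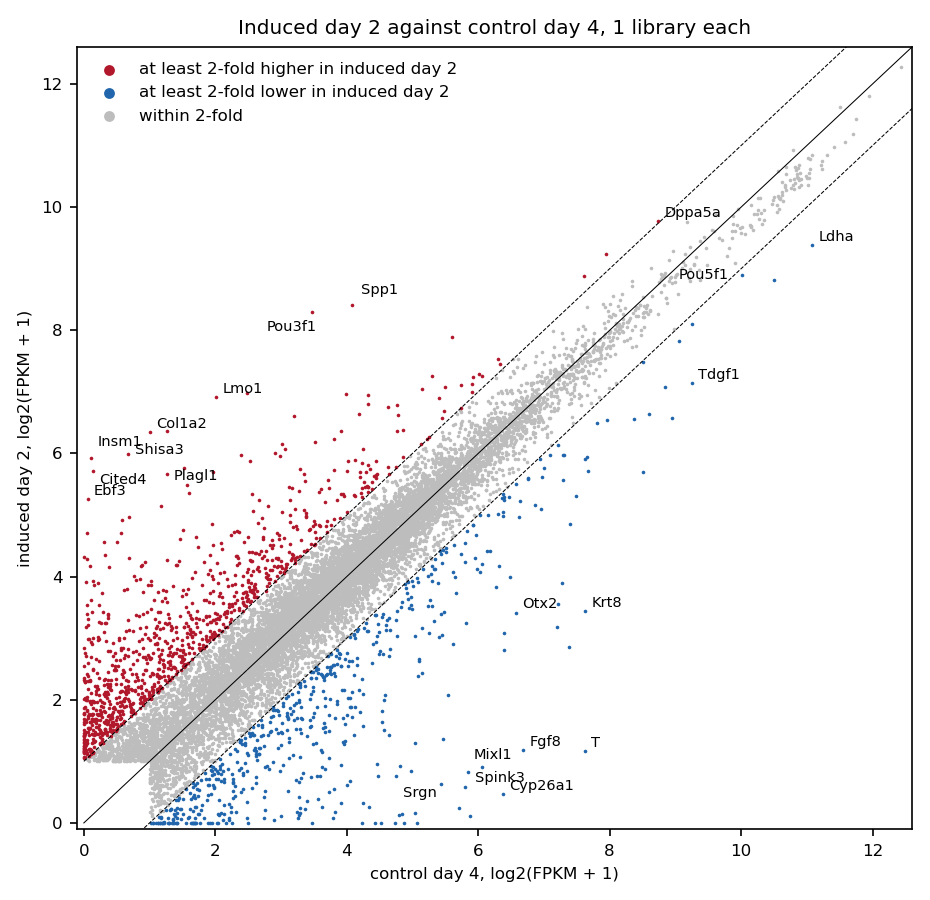
Expression of 12810 genes in the induced day 2 library (y axis) and the control day 4 library (x axis), both as log2(FPKM + 1); dashed lines mark a 2-fold difference and the solid line equality. Red points are 1011 genes at least 2-fold higher in induced day 2, led by Insm1, and blue points 575 genes at least 2-fold lower, led by T.

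Pou3f1 itself, the induced gene, had 312 FPKM in induced day 2 cells, against 10.1 in control day 4 and 64.3 in control day 2. The difference from control day 4 was 4.81. Transgene and endogenous transcripts (chr4:124334889-124337899, plus strand, build NCBIM37, the assembly behind mm9) are not separated by this value. Pou3f1 was 1 of the 12 genes with the largest positive differences.

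Insm1, a zinc finger repressor of neuroendocrine and neuronal precursors, had 59.7 FPKM in induced day 2 cells, against 0.0785 in control day 4, a difference of 5.82. Ebf3, a helix-loop-helix factor of differentiating neurons, had 37.3 against 0.0424. Lmo1, which bridges transcription factors through its LIM domains, had 119.9 against 3.04 FPKM. All 3 had less in the later induced libraries: Insm1 had 8.12 FPKM in induced day 4, Ebf3 8.82 and Lmo1 33.3. Cited4, a transcriptional coactivator-binding protein, had 51.3 against 0.0995 FPKM, and Plagl1, an imprinted zinc finger factor, had 50 against 1.4. Control cells came to Plagl1 later, with 20 FPKM in control day 6. Shisa3, an endoplasmic reticulum protein that holds back Wnt and FGF receptors, had 62.3 against 0.598 FPKM. C1ql2, a secreted synaptic organiser, had 25.2 against 0.034, and Rgs4, a brake on G protein signalling, had 29.4 against 0.49. Tppp3, a tubulin-binding protein, had 81 against 1.4 FPKM. Col1a2, a chain of type I collagen, had 80.2 against 1. Of these 12, Pou3f1 and Spp1 were the only ones above 3 FPKM in control day 2. Spp1, the secreted glycoprotein osteopontin, had 339.9 FPKM against 15.9 in control day 4, and control day 2 had 141.

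**Figure D2:**
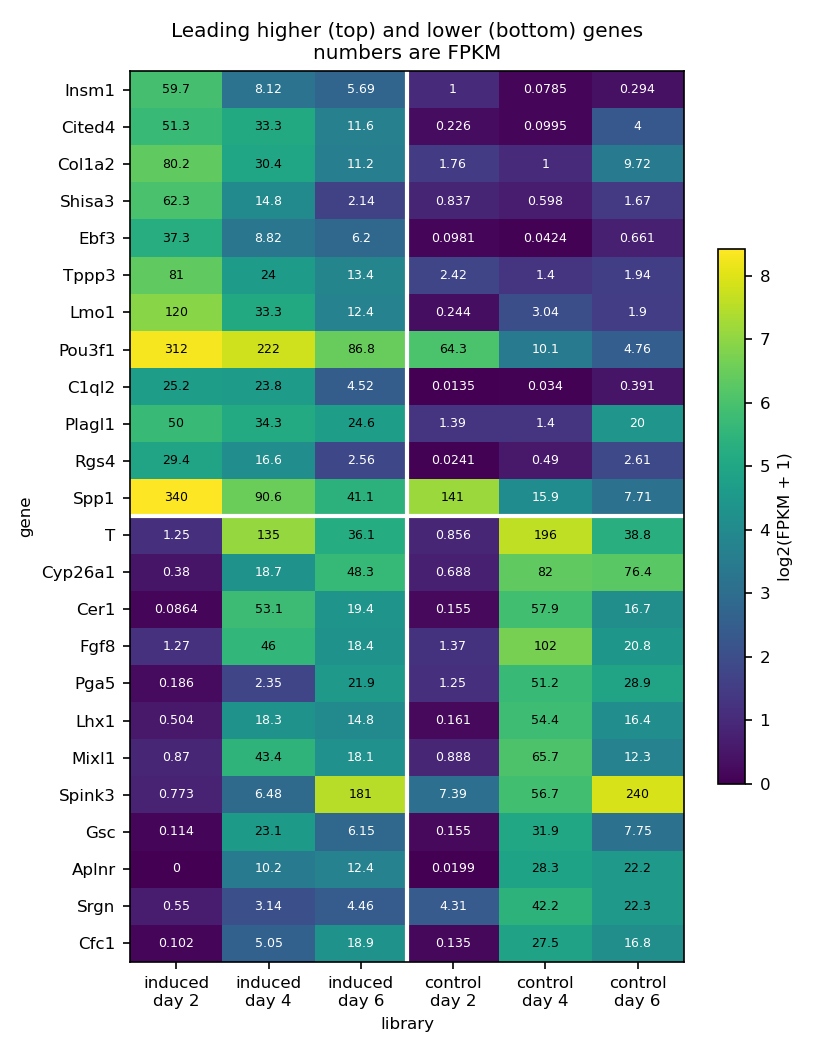
FPKM of the 12 leading higher genes (top) and the 12 leading lower genes (bottom) in the induced and control libraries by day; colour is log2(FPKM + 1) and each cell prints its FPKM. In the induced day 2 column the upper genes run from 25.2 (C1ql2) to 339.9 (Spp1), and the lower genes from a listed 0 (Aplnr) to 1.27 (Fgf8).

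Oct6 peaks of the day 4 ChIP gave a second, separate readout. A peak centre lay within 10 kb of an annotated start site for 197 of 986 higher genes with an annotated position (20%, 95% Wilson interval 17.6 to 22.6), for 65 of 563 lower genes (11.5%, 9.16 to 14.4) and for 2062 of 11045 genes within 2-fold (18.7%, 18 to 19.4). These intervals cover counting error only. The interval for higher genes overlapped that for genes within 2-fold, and the interval for lower genes lay below both. Of the 12 leading higher genes, 5 had such a peak, namely Pou3f1, Col1a2, Tppp3, Lmo1 and C1ql2, and of the 12 leading lower genes only Cfc1 had one. The octamer ATGCAAAT, sought on both strands, stood in 334 of 7965 peaks (4.19%) and in 1.07% of 15930 flanking windows of the same 133 bp. Among the 232 peaks near higher genes 8 held it (3.45%), among 65 near lower genes 3 did (4.62%), and among 1820 near genes within 2-fold 22 did (1.21%). In the flanking windows of these peaks the shares were 0.86%, 0% and 0.63% in the same order. A match is a run of letters and does not show what bound there. Of the 8 peaks near higher genes 3 are printed as examples of an Oct6 peak with an octamer beside a higher gene; the octamer, or its reverse complement, is in capitals, and the sequences are the plus strand of NCBIM37, 5′ to 3′.
Col1a2 intron, chr6:4457730-4457862: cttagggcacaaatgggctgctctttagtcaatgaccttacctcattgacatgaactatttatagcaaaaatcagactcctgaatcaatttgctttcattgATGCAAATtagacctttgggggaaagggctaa
Pcdh8 upstream, chr14:80171147-80171279: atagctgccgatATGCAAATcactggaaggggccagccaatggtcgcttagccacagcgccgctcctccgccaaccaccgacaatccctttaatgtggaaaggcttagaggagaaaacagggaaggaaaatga
A930038C07Rik intron, chr6:65622099-65622231: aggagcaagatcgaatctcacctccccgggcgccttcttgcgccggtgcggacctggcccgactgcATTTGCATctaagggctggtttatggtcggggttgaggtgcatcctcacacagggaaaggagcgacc
The Pcdh8 peak was centred 93 bp before the start site, and those in A930038C07Rik and Col1a2 lay 580 and 2981 bp into the gene. Peak scores were 10.1 for Pcdh8 and Col1a2 and 13.9 for A930038C07Rik. The highest score of the 8, 20.3, was that of a peak near Ric8b, which is not printed. Pcdh8, a protocadherin of paraxial mesoderm and brain, had 8.14 FPKM in induced day 2 against 1.5 in control day 4, and the transcript A930038C07Rik had 18.6 against 0.038.

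Programmes were read from 34 lists of genes with known roles, of whose 555 members 553 were in the table and 451 expressed. A member that reached 1 FPKM in only 1 of the 2 libraries could be higher only in that library, so the filter set the side of its difference. Counts and medians over expressed members are therefore given as a description, beside the median over all listed members where the 2 are far apart. Each list count is to be read beside the shares over all genes. These were 87.6% within 2-fold, 7.89% higher and 4.49% lower. In bulk libraries a difference in the number of cells of a type and one in RNA per cell cannot be told apart. Over expressed members, neuronal regulators had the highest median difference of the 34 lists. Of 24 listed proneural and neuronal factors 17 were expressed, and of these 14 were at least 2-fold higher and 1 lower. Summed over all 24, control day 4 had 63.9 FPKM, most of it from Lhx1. Most of the 14 higher members thus passed the filter only through the induced library, where they are high. Their median difference was 2.27, beside 0.07 over all genes, and 1.12 with the unexpressed members counted, which is below the medians so taken of naive pluripotency genes (1.64) and fibroblast markers (1.18). Control day 4 minus control day 2 had a median of -0.08 over the expressed members. Induced day 2 minus control day 2 had one of 2.19, beside 0.17 over all genes. Neurod1, a basic helix-loop-helix factor of neurons and endocrine cells, had 22.7 FPKM against 0.233, with 4.19 in control day 2. Ebf1 and Ebf2, relatives of Ebf3, had 19.4 and 8.11 against 0.248 and 0.0188 FPKM. Neurog1, a proneural factor of sensory lineages, had 3.87 against 0.0108, and its target Nhlh1 had 6.16 and was listed at 0 in control day 4. Neurog1 was thus under the 0.0292 FPKM that 3 fragments in a gene of 2 kb are worth in the control library. The single lower member was Lhx1, which is also a primitive streak gene. Prox1 and Isl1 were level, with differences of 0.13 and -0.09.

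Neural progenitor genes gave a more divided picture, with 7 of 14 expressed members at least 2-fold higher, 1 lower and a median of 1.09, against 0.27 over all 24 listed. Sox21, which opposes the SoxB1 factors in neurogenesis, had 22.6 FPKM against 0.422. Irx3, a neural plate homeobox factor, had 17.3 against 0.841, its cluster neighbour Irx5 had 4.05 against 0.4, and Nkx6-1, a ventral patterning factor, had 4.24 against 0.049. Pax6 had 2.57 against 0.138 FPKM, low in absolute terms, and Pou3f3, a class III relative of Oct6, had 1.77 against 0.0482. Other genes of neuroepithelium were below control day 4. Nes, the progenitor intermediate filament, had 5.8 FPKM in induced day 2, against 13.8 in control day 4. N-cadherin (Cdh2) had 16.4 against 32.3, Msi1, an RNA-binding protein of neural stem cells, had 6.95 against 14.5, and Zfp521 had 0.537 against 1.97. The differences of -0.94, -0.97 and -0.95 for Cdh2, Msi1 and Zfp521 were near the 2-fold threshold, and that of Zfp521 passed it with median ratio scaling (-1.01), quantile normalisation (-1.15) and a pseudocount of 0.1 (-1.70). Sox1, an early marker of committed neuroectoderm, was below 1 FPKM in both, with 0.909 against 0.0307, as was Zic1 with 0.396 against 0.139. Sox3 differed by 0.41.

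Some structural genes of neurons were higher. Of 19 expressed members of the neuron list, 7 were at least 2-fold higher, 2 lower and 10 within 2-fold, with a median of 0.80. Tubb3, a tubulin of young neurons, had 50.7 FPKM in induced day 2 against 2.92 in control day 4, Gap43, a growth cone protein, had 21.2 against 2.35, and Rtn1, a reticulon, had 13.6 against 0.976. Stmn2, another growth-associated protein, was abundant and level in both, with 86.7 against 61.2. Dpysl5, a collapsin response mediator, had less in induced day 2, 4.26 against 16.3, and the neurofilament gene Nefm had 0.803 against 2.86. Several cell surface genes were higher. Cntn2, an axonal adhesion protein, had 39.8 FPKM against 2.02, and Ncam1 had 8.82 against 0.59. The laminin receptor subunit Itga6 had 124 against 14.9, the laminin chain Lamc1 134 against 44, and the mesenchymal cadherin Cdh11 42.1 against 8. In the list of cadherins and adhesion genes 6 of 17 were higher and 1, the placental cadherin Cdh3, was lower with 2.06 against 7.04.

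Axon guidance genes fell on both sides, with 6 of 19 at least 2-fold higher and 4 lower, beside 7.89% and 4.49% of all genes. Epha4, an ephrin receptor, had 22.3 FPKM against 3.25. The semaphorin receptor Plxna2 had 28.3 against 5.28, and the Slit receptor Robo1 had 36.7 against 7.78. The higher members were receptors and ligands of several families, whereas the lower ones included the Robo ligand Slit3, with 2.09 against 11.5. Of synaptic and excitability genes, 4 of 14 were higher, led by the clathrin adaptor Snap91 with 4.67 against 0.383, and 2 were lower, the NMDA receptor subunit Grin1 and the GABA-synthesising enzyme Gad1. Of the 4 higher members only Vamp2, a vesicle fusion protein, was above 5 FPKM, with 15.8 against 7.26.

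Hox genes give position along the hindbrain and trunk, and of 24 listed Hox and Cdx members 11 were expressed, none reaching 5 FPKM in either library. The 8 that were at least 2-fold higher had passed the filter through the induced library. The median was 1.22 over the expressed members and 0.51 over all listed. Hoxb4 had 4.59 FPKM in induced day 2 against 0.0989 in control day 4, Hoxb2 had 3.46 against 0.927, and Hoxb5 had 2.12 and was listed at 0 in control day 4. Cdx2, which sits upstream of trunk Hox genes, had 0.999 against 2.77 FPKM, a difference of -0.92. In the retinoic acid list 3 of 10 members were higher and 2 lower, and the median of 0.13 and the mean of -0.37 differed in sign. The mean is pulled by Cyp26a1, the enzyme that clears retinoic acid, which had 0.38 against 82 FPKM. The binding protein Crabp1 had 21.8 against 6.11, and Aldh1a2, the embryo's main synthesising enzyme, had 1.9 against 0.321. In the neural crest list 5 of 8 expressed members were within 2-fold, beside 87.6% of all genes. Zeb2 was higher with 8.04 against 1.64, and Msx1 and Msx2 were lower with 2.68 and 0.923 against 15.7 and 7.21. The list median of 0.01 flipped to -0.05 by median ratio and to -0.14 with quantile normalisation, and the mean was -0.17.

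Naive pluripotency genes were higher in early induced cells than in control day 4 as a list, and for many the level was near that of control day 2. Of 17 expressed members 10 were at least 2-fold higher than in control day 4, none lower, with a median of 1.64. Zfp42 (Rex1) had 106 FPKM against 23.8, with 104 in control day 2. Nr0b1, an orphan nuclear receptor of naive cells, had 25.9 against 1.84 and 28.7 in control day 2, and Fgf4 had 24.7 against 3.71 and 61.6. Some members exceeded both control days: Gbx2 had 25.3 FPKM against 0.483 in control day 4 and 11.9 in control day 2, Klf5 had 40.8 against 8.68 and 17.9, and Nr5a2 had 12.7 against 1.38 and 8.16. Nanog and Dppa3 alone had negative differences, Nanog with 53 FPKM in induced day 2 against 96.5 in control day 4 (-0.85).

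General pluripotency factors lay mostly level with control day 4 or above it, and in the list 5 of 15 members were at least 2-fold higher and 1 lower. Pou5f1, the gene of Oct4, had 436 FPKM against 495, while control day 2 had 890, so that the induced library stood nearer control day 4. Sox2 had 66.7 against 35.5, with 135 in control day 2, and Utf1, a chromatin protein of pluripotent cells, had 100.2 against 71.9, with 320.3. Dppa2 had 36.8 against 5.32, and Gdf3, a TGF-beta family ligand, had 66.5 against 7.33. The lower member was Tdgf1, the Nodal co-receptor Cripto, with 140.1 against 608. Pou5f1, Nanog, Tdgf1 and Dppa5a have processed copies in the genome, so their values are uncertain to that extent.

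Primed epiblast genes were divided between level and lower ones. None of 13 members was at least 2-fold higher, 7 were within 2-fold and 6 were lower, with a median of -0.98. Otx2, a forebrain and epiblast homeobox factor, had 9.67 FPKM in induced day 2 against 94.6 in control day 4, and Fgf5, the standard epiblast marker, had 14.9 against 88.1. Dnmt3b had 92.7 against 248, Zic2 11.4 against 37.4, and the claudin Cldn6 51.8 against 203. Control day 2 had 58 FPKM of Otx2, 25.4 of Fgf5 and 348 of Dnmt3b, so that for these 3 genes the induced library was below both control days. In contrast Dnmt3a had 38.1 against 19.9, and the cofactor Dnmt3l had 55.2 against 19.1 and 190.1 in control day 2.

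Primitive streak genes had the most negative median of the 34 lists. Of 16 expressed members of the streak and nascent mesoderm list, 13 were at least 2-fold lower in induced day 2 and none higher, with a median of -3.14. The median was 3.22 for control day 4 minus control day 2. For induced day 2 minus control day 2 it was -0.03, beside 0.17 over all genes. T (Brachyury), the T-box factor of the streak, had 1.25 FPKM in induced day 2 against 196 in control day 4, a difference of -6.46. Fgf8 had 1.27 against 102, Mixl1 0.87 against 65.7, the organiser factor Gsc 0.114 against 31.9, and Lhx1 0.504 against 54.4. These genes were also low in control day 2, where T had 0.856 and Mixl1 had 0.888 FPKM. In induced day 4 they were present, with 135 FPKM of T, 43.4 of Mixl1, 46 of Fgf8 and 23.1 of Gsc. Eomes, a T-box factor of streak and definitive endoderm, had 7.45 against 83.1 and was the only expressed member above 5 FPKM in induced day 2. Members further along the mesoderm path were low in both: Tbx6 had 0.389 against 1.6 and Mesp2 0.556 against 1.58, while Mesp1 had 0.0604 against 12.8. Among cardiac and lateral mesoderm genes 5 of 12 were lower and 1 higher, with a median of -0.92, against -0.18 over all 16 listed. Gata4 had 1.44 against 14.5, and Hand1 had 0.434 against 7.65. Aplnr, the apelin receptor of early mesoderm, was listed at 0 in induced day 2 and had 28.3 FPKM in control day 4.

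Endoderm genes were likewise low at induced day 2. Of 11 endoderm factors 10 were at least 2-fold lower, with a median of -2.36, and of 15 visceral endoderm carriers and receptors 13 were lower and 1 higher, with a median of -2.68. Cer1, a secreted antagonist of Nodal, BMP and Wnt, had 0.0864 FPKM against 57.9. Sox17 had 0.248 against 18, Foxa2 2.51 against 22.2, Gata6 2.04 against 14.6, and the chemokine receptor Cxcr4 1.56 against 43.4. In most of these genes control day 2 was also low; Sox17 had 0.608 and Foxa2 1.02 there. For some visceral endoderm genes, of which 4 are given, control day 2 already had more than the induced library. The median of induced day 2 minus control day 2 was 0.01 over the 15 expressed carriers and receptors, beside 0.17 over all genes. Cubn, a receptor for vitamin B12 with its carrier, had 0.527 FPKM in induced day 2 against 15 in control day 4 and 7.26 in control day 2. Its partner Lrp2 had 2.12 against 22.2 and 15.9, the adaptor Dab2 3.22 against 45.7 and 12.3, and the protease inhibitor Spink3 0.773 against 56.7 and 7.39. The plasma carriers Ttr and Apoa1, with 0.0955 and 0.0956 against 26.6 and 8.68, were near 0 in control day 2 too. Apoe, which many cell types make, was high in both, with 383 against 289.6. The 1 higher member was transferrin (Trf), with 4.33 against 0.491.

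Keratins were among the genes furthest below control day 4. The simple keratins Krt8 and Krt18, partners in 1 filament, had 9.84 and 6.25 FPKM in induced day 2 against 197 and 166 in control day 4, and Krt19 had 4.43 against 34.3. E-cadherin (Cdh1) and Epcam were within 2-fold, with 78.8 and 82.6 against 132 and 95.9, so the epithelial list as a whole had 4 of 10 lower, 1 higher and a median of -0.47. Its higher member, the homeobox gene Dlx5, had 3.91 against 0.0148. Of 9 expressed trophoblast markers 4 were lower and none higher, and these were Eomes, Hand1, Krt7 and 1600029D21Rik, of which Eomes and Hand1 are also mesoderm genes. The blood and endothelium list had 3 of 8 lower and 2 higher: Flt1, a VEGF receptor, had 0.696 against 10.6, whereas the endothelial receptor Tek had 2.86 against 0.242 and the adhesion protein Esam 3.26 against 0.288. Srgn, the proteoglycan core protein serglycin, had 0.55 against 42.2 FPKM, and Pga5, a pepsinogen, had 0.186 against 51.2.

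**Figure D3:**
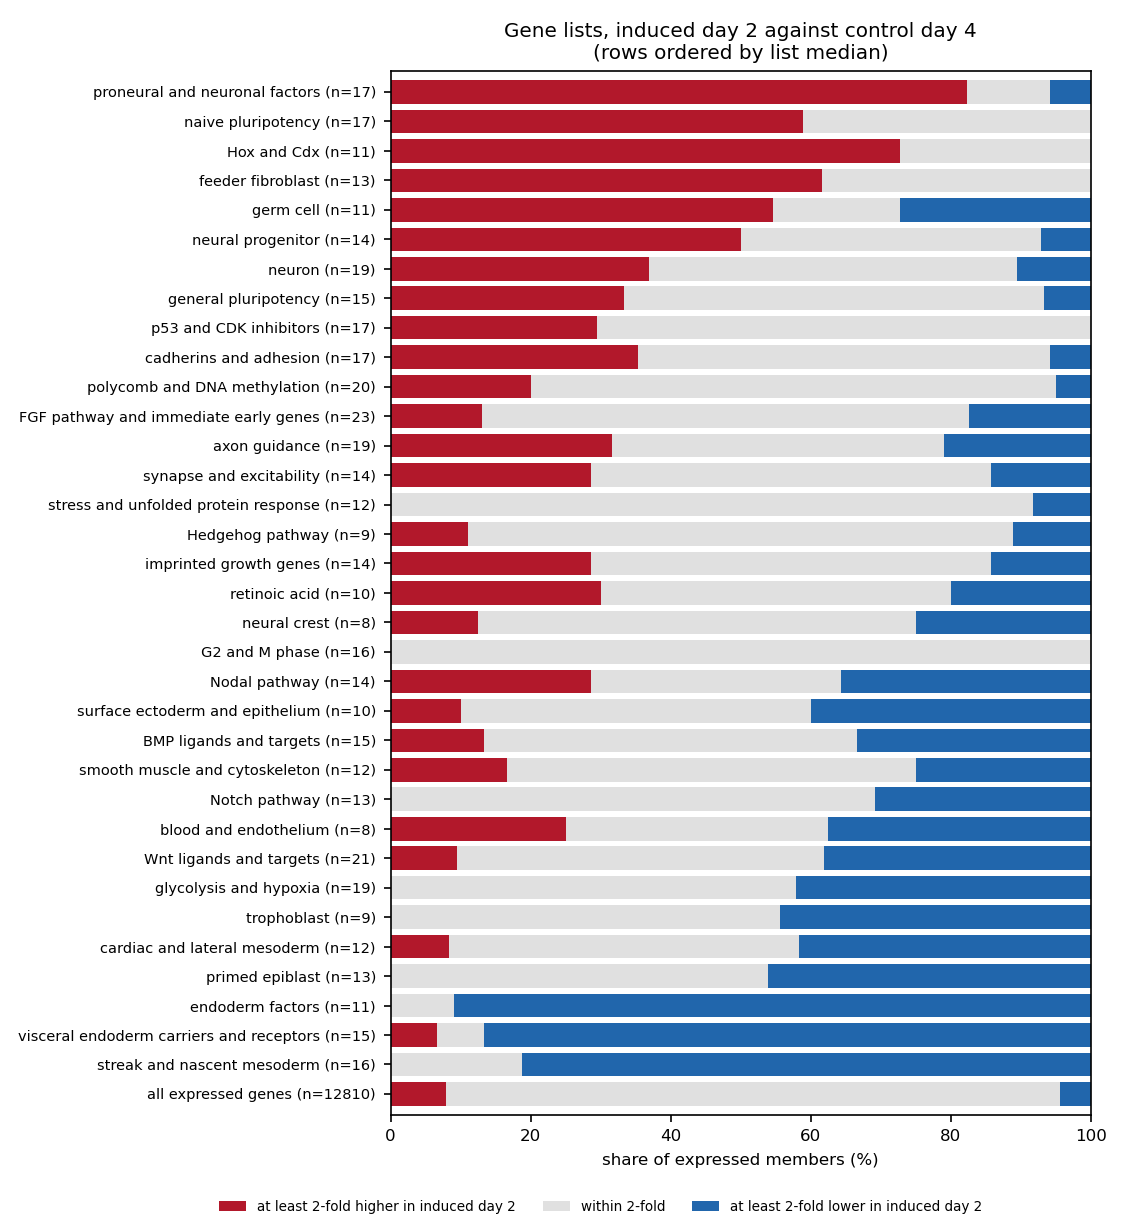
Share of expressed members (x axis, percent) of each of 34 gene lists that were at least 2-fold higher (red), within 2-fold (grey) or at least 2-fold lower (blue) in induced day 2 than in control day 4, with n expressed members per list and all 12810 expressed genes in the bottom row. Proneural and neuronal factors are at the top with 14 of 17 higher, and streak and nascent mesoderm genes at the bottom of the lists with 13 of 16 lower. Most of those 14 reached 1 FPKM only in induced day 2.

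Signalling genes lay on both sides. Nodal pathway members had 4 of 14 higher and 5 lower. The feedback antagonists of Nodal were higher, with Lefty1 at 152 FPKM in induced day 2 against 38.1 in control day 4 and Lefty2 at 118 against 41.2. The ligand Gdf3 was higher too, as given above. The co-receptors Cfc1 (Cryptic) and Tdgf1 were lower, Cfc1 with 0.102 against 27.5, and the activin trap Fst had 13.2 against 76.1. Nodal itself had 27.8 against 38.4. In the Wnt list 8 of 21 members were lower and 2 higher, with a median of -0.74. Its median was 1.10 for control day 4 minus control day 2. For induced day 2 minus control day 2 it was 0.31, beside 0.17 over all genes. The direct target Sp5 had 0.906 against 26.9, the antagonist Dkk1 0.935 against 21, the streak ligand Wnt3 0.913 against 14, and the feedback gene Axin2 4.09 against 10.5. The Wnt deacylase Notum, with 6.06 against 1.19, and Shisa3 were the 2 higher members.

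BMP genes had 5 of 15 lower and 2 higher. Their median was 1.33 for control day 4 minus control day 2. For induced day 2 minus control day 2 it was 0.61, beside 0.17 over all genes. Id2, an inhibitor of helix-loop-helix factors, had 96.8 FPKM in induced day 2 against 8.19 in control day 4, while Id1 had 101 against 56.8 and Id3 63.5 against 92.9, both within 2-fold. The ligands Bmp7 and Bmp2 had 1.15 and 0.645 against 8.11 and 3.82. Bmp4 had 6.56 against 6.44, or 0.02, and this flipped to -0.07 by median ratio and to -0.08 with quantile normalisation. Notch genes had 4 of 13 lower and none higher: the effectors Hes1 and Nrarp had 7.3 and 1.66 against 42.9 and 9.56, and the ligand Jag1 2.58 against 6.69. The Notch median was 0.50 for control day 4 minus control day 2. For induced day 2 minus control day 2 it was -0.08, beside 0.17 over all genes. Of 23 expressed FGF and immediate early genes 16 were within 2-fold, a smaller share than the 87.6% of all genes. Egr1 had 28.9 against 12, and the feedback inhibitor Spry4 18.8 against 8.29. That list's median of 0.37 and mean of -0.02 differed in sign, the mean being pulled by Fgf8 and Fgf5. Of 9 expressed Hedgehog genes 7 were within 2-fold, beside 87.6% of all genes. Among these 7 were Ptch1 with 20.9 against 11.2 and 59.9 in control day 2, and Gli1 with 5.4 against 2.47 and 17.2.

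Metabolic and growth genes differed by list, and over all genes 7.89% were higher and 4.49% lower. Of 19 expressed glycolysis and hypoxia genes 8 were at least 2-fold lower in induced day 2 and none higher, with a median of -0.89. Ldha, lactate dehydrogenase, had 667 FPKM against 2167, Pgk1 449 against 1443, and the glucose transporters Slc2a1 and Slc2a3 98.7 and 134 against 387 and 456. Control day 2 was below control day 4 in all 4, with 1006 FPKM of Ldha and 177 of Slc2a1. Ldha and Pgk1 have many processed copies, so their values are uncertain to that extent. Many genes of this list are abundant, and the median over all genes with a mean FPKM of 500 or more was -0.35. After quantile normalisation the median over those abundant genes was 0 and that of the list was -0.80. The part of this level trend in the list was not tested. Genes of the G2 and M phases were within 2-fold in 16 of 16, beside 87.6% of all genes, with a median of -0.15. Among p53 targets and CDK inhibitors 5 of 17 were higher and none lower, with Cdkn1c (p57) at 74.3 against 13 and Cdkn2a at 20.1 against 4.88, whereas Cdkn1a (p21) was level at 26.6 against 22.6. Stress genes were within 2-fold in 11 of 12, near the share of all genes, the other being Gadd45b with 1.87 against 8.4. Imprinted growth genes had 4 of 14 higher and 2 lower: beside Plagl1 and Cdkn1c, Mest had 237 against 47.7 and Dlk1 8.61 against 1.22, while Igf2 had 5.16 against 33.4. In the germ cell list 6 of 11 were higher, led by Mael, Dazl and Piwil2, genes of germline small RNA and translation control, with 15.4, 5.6 and 5.91 against 2.7, 0.542 and 0.734, while the median was 1.12 over expressed and 0.32 over listed members, and 3 were lower, among them Prdm1 with 0.801 against 4.59. Of 20 expressed chromatin regulators 15 were within 2-fold, a smaller share than the 87.6% of all genes. Tet2 at 9.45 against 1.44 and Bmi1 at 12.4 against 4.53 were among the 4 higher, and 1 was lower. Smooth muscle and cytoskeletal genes had 3 of 12 lower, led by Tagln with 20.3 against 71.6, and 2 higher, led by the actin-severing Scin with 15.2 against 0.704.

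The stem cells had been kept on feeders, and fibroblast markers were among the higher genes. Of 13 such markers 8 were at least 2-fold higher in induced day 2 and none lower, none was listed at 0 in either library, and their summed FPKM was 195 in induced day 2 against 60.7 in control day 4 and 60.9 in control day 2. Col1a2 made up 80.2 of the sum; without it the sum was 114 against 59.7. The partner chain Col1a1 had 4.13 FPKM against 1.72, Col3a1 2.2 against 0.192, and the stromal markers Lum and Postn 1.13 and 1.5 against 0.0685 and 0.101. S100a4 had 13 against 0.58, and vimentin, which neural and mesenchymal cells make as well, 58.9 against 40.1. The part of fibroblasts in the higher genes was not tested.

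For 22 list members the induced library lay at the control day 4 level although control day 2 was at least 2-fold away from it. They were picked on these values, by a difference below 0.4 from control day 4, and are described only. They were 11.6% of the 190 expressed list members with control day 2 that far away, beside 369 of 1722 such genes (21.4%) among all expressed genes. Among those with more in control day 4 than in control day 2, the imprinted factor Peg3 had 61.1 FPKM in induced day 2, 55.9 in control day 4 and 10.3 in control day 2. Nrp1, a semaphorin and VEGF receptor, had 5.03, 4.01 and 0.229 in the same order. The BMP feedback inhibitor Smad6 had 5.51, 4.96 and 0.975, and the lymphatic and neural homeobox factor Prox1 3.56, 3.18 and 0.293. Among those with less in control day 4 than in control day 2, the forkhead factor Foxd3 had 4.75 FPKM in induced day 2, 6.54 in control day 4 and 31.4 in control day 2. Fgf15 had 5.81, 4.26 and 33.4, and Grhl2, an epithelial transcription factor, 7.93, 7.06 and 22. Rest, which represses neuronal genes outside neurons, had 13.5, 11.1 and 25, and the retinoic acid receptor Rarg 25.6, 21.6 and 58.3.

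**Figure D4:**
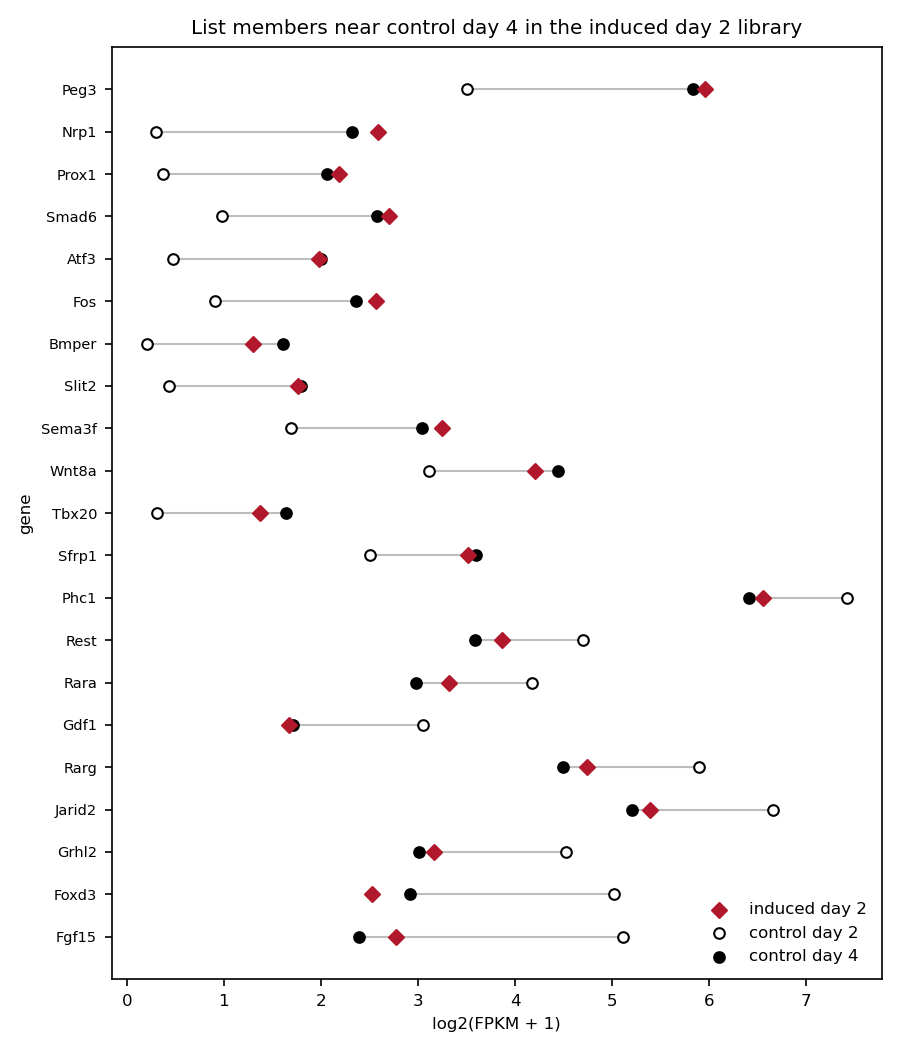
Levels in log2(FPKM + 1) (x axis) of list members (y axis) that lay within 0.4 of control day 4 (black) in induced day 2 (red diamonds) while control day 2 (open circles) lay at least 1 away from control day 4. The grey line joins the 2 control days, and 1 of the 22 genes is not drawn; genes from Sfrp1 upward are those higher in control day 4 than in control day 2.

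Genes that move over the whole control course were then chosen from control day 6 against control day 2, 2 libraries that enter neither side of the comparison. Of 2198 genes at least 2-fold higher in control day 6 than in control day 2, 1922 were expressed here. In induced day 2 186 of them were higher than in control day 4 (9.68%, beside 7.89% of all genes), and 1432 were within 2-fold. The other 304 were lower (15.8%, beside 4.49% of all genes). Of 860 genes at least 2-fold lower in control day 6, 819 were expressed. Of these 234 were higher in induced day 2 than in control day 4 (28.6%, beside 7.89%) and 559 were within 2-fold. Another 26 were lower (3.17%, beside 4.49%). The median differences were -0.17 for genes gained over the course and 0.57 for genes lost over it. Which genes count as gained or lost, and how many, depends on scaling. Over all genes the median of control day 6 minus control day 2 was 0.22. With median ratio scaling 1025 gained and 884 lost genes were within 2-fold, and with quantile normalisation 847 and 912. Among the largest gains, the embryonic globin gene Hbb-bh1 had 0.111 FPKM in induced day 2 and 0.121 in control day 4, against 962 in control day 6. Acta2, smooth muscle actin, had 2.8 against 5.81, with 126 in control day 6. Igfbp5, an IGF-binding protein, had 1.39 against 0.433, with 114. Among the largest losses were Dnmt3l, Fgf4, Dppa2, Nr0b1 and Lefty1, all at least 2-fold higher in induced day 2 than in control day 4, and Rpl10l with 21.8 against 2.9, a ribosomal protein copy whose reads may be shared with its parent gene.

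The same lag of 2 days occurs once more in the study, in induced day 4 against control day 6, which shares no library with the first pair. There 739 of 12974 genes stood 2-fold or more above control day 6 (5.70%) and 681 stood 2-fold or more below it (5.25%). Of the 1011 genes higher in the first pair 362 were also higher in the later one, 35.8% of the first list and 49.0% of the later, and 35 were at least 2-fold lower there. Of the 575 lower genes 167 were also lower, 29.0% of the first list and 24.5% of the later, and 38 were at least 2-fold higher. Across the 12363 genes expressed in both pairs the differences had a Pearson r of 0.43 and a Spearman rho of 0.28, a description over genes that share the arms and the table.

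Lists behaved differently in the 2 pairs. Proneural and neuronal factors had a positive median in both, 2.27 in the first pair and 1.29 in the later, as did naive pluripotency genes with 1.64 and 1.41. Visceral endoderm genes were lower in both, at -2.68 and -2.84. Streak genes differed in side: 13 of 16 members were lower in the first pair, while 7 of 15 were higher and 2 lower in the later one, with medians of -3.14 and 0.69. T had 135 FPKM in induced day 4 against 38.8 in control day 6, and Mixl1 43.4 against 12.3. Cardiac and lateral mesoderm genes were lower in all 15 expressed members of the later pair, with a median of -3.12. Summed over all 16 listed, they had 15.4 FPKM in induced day 4 against 357 in control day 6. Members could therefore pass the filter through control day 6 alone, where they are high. The fibroblast list had opposite signs, with medians of 1.18 and -1.02. Primed epiblast genes were level in the later pair at 0.01, with Otx2 at 31 against 56 and Fgf5 at 32.6 against 24.1. No test of the difference between the pairs was made, with 1 library in each arm and day.

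**Figure D5:**
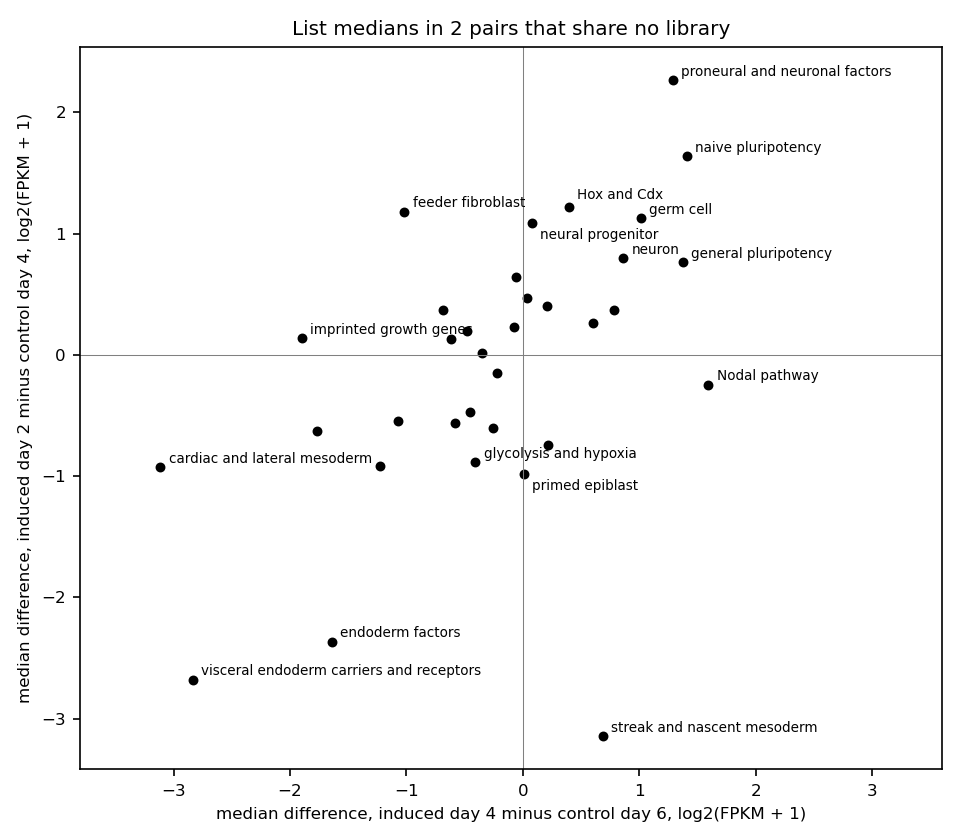
Median difference in log2(FPKM + 1) of each of 34 gene lists in induced day 2 minus control day 4 (y axis) and in induced day 4 minus control day 6 (x axis), 1 point per list, a selection labelled. Streak and nascent mesoderm genes lie at -3.14 on the y axis and on the positive side of the x axis, while visceral endoderm genes are negative on both.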

How the data were processed

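RNA was measured in 6 libraries and Oct6 binding in 1 ChIP library with its input, each from mouse embryoid bodies and each the only sample of its group, as the labels give them. The expression values are FPKM that the authors deposited; TopHat 1.4.1, Cufflinks 1.3.0, Cuffdiff and HOMER, and the build mm9, are named per the submitters' processing notes. The gene annotation behind the FPKM, and how strand and reads with several positions were treated, are not given in the sources used here. Genes with processed copies, such as Pou5f1, Krt8, Krt18, Ldha and Pgk1, may share reads with them. The deposited peak list gives 7979 peaks of 133 bp with a score that the authors' peak caller wrote; 14 peaks on unplaced contigs were left out.

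Genes with 1 FPKM or more in either library were compared by the difference of log2(FPKM + 1), which understates the change of low genes, and 2-fold means a difference of 1. An exact 0 can be a failed estimate, so genes listed at 0 are given without a fold. No test was made, since each group has 1 library; an additive model of arm and day over the 6 libraries was not fitted. Symbols were matched to start sites of the NCBIM37 annotation (98.3%, 12594 genes). Named genes are Pou3f1 and the 12 highest and 12 lowest differences among genes of 5 FPKM or more. Up to 4 members of each list with the differences largest in size and a short fixed set were added. So were 6 genes gained and 6 lost most between control days 2 and 6. Symbols of small RNAs, pseudogenes and unnamed or accession-like gene models were left out of the highest, lowest, gained and lost genes. Others were chosen after their values were seen. The members and lists were chosen with earlier results of these data known. Alternatives were a pseudocount of 0.1, median ratio scaling, quantile normalisation, a filter of 5 FPKM or none, a threshold of 1.5, and peak distances of 5 and 50 kb or the higher scoring peaks. Depth was estimated from the steps between values under 0.3 FPKM that are whole multiples of 1 fragment. The calculation of calls was checked on simulated data. Calculations ran in Python 3.11.15 on pandas 2.3.3 tables, with numpy 2.4.6 for arrays, scipy 1.17.1 for correlations and matplotlib 3.10.9 for plots. Some items are not reported here.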

Additional observations from a re-analysis of the deposited data

Results flagged for a closer look

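For 15 of the genes named or listed, the 2 pairs with a lag of 2 days lay on opposite sides by at least 2-fold. They were picked on these values, and many had been named for large differences in the first pair, so the count is a description only. Over all genes expressed in both pairs, 35 of 900 higher in the first pair were at least 2-fold lower in the later one. Of 544 lower in the first pair, 38 were at least 2-fold higher. These are single libraries, and the difference between the pairs was not tested. Streak and organiser genes were below control day 4 in induced day 2 and above control day 6 in induced day 4: the difference of T was -6.46 in the first pair and 1.77 in the later, that of Mixl1 -5.16 and 1.74, that of Gsc -4.88 and 1.46, and that of Eomes -3.32 and 1.29. Fgf8 had -5.50 and 1.11, and the Wnt target Sp5 -3.87 and 1.22. The secreted inhibitors Cer1 and Fst had -5.76 and -2.44 in the first pair and 1.62 and 1.59 in the later. Tdgf1, the Nodal co-receptor, had -2.11 and 2.25.

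Other genes were above control day 4 in induced day 2 and below control day 6 in induced day 4. The imprinted genes Cdkn1c and Mest had 2.43 and 2.29 in the first pair and -1.98 and -1.01 in the later. The endothelial genes Tek and Esam had 1.64 and 1.72, then -2.45 and -1.52. The collagen gene Col3a1, a fibroblast marker, had 1.43 and -4.18, and Hoxb6 had 1.29 and -1.31.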

How the results depend on the processing

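No paired analysis was possible because each group has 1 library, and leaving out a library leaves no comparison. No value turned its direction past the 2-fold threshold under any alternative. Of list medians, 141 values moved little and 28 moved; of single genes 393 moved little and 81 moved; and of counts and shares 31 moved little and 30 moved.

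With a pseudocount of 0.1, 585 genes were higher and 257 lower in both pairs. The genes gained and lost over the control course were chosen anew here and under each scaling, so the sizes of these sets changed too. Of those gained 349 were higher, and of those lost 392 were higher and 42 lower. The medians were then -5.27 for streak, -2.23 for cardiac, -3.76 for visceral endoderm, -3.25 for endoderm factors, -1.39 for trophoblast, 2.03 for neural progenitor, 5.16 for proneural, 1.08 for neuron, 2.29 for Hox, -1.27 for Wnt and 2.49 for fibroblast genes, since a smaller pseudocount widens the differences of low genes.

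Under median ratio scaling, 237 genes lost over the course were higher, 884 within 2-fold and 40 lower, of a larger set than the 819 of the main setting. The primed epiblast median was -1.08. After quantile normalisation, 113 gained genes were higher, 847 within 2-fold and 286 lower, of a smaller set than the 1922 of the main setting. Of the lost genes 258 were higher, 912 within 2-fold and 48 lower, again of a larger set. The medians were -1.10 for cardiac, -1.10 for trophoblast and 0.97 for neural progenitor genes. The cause of the moved medians was not tested.

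With a filter of 5 FPKM, fewer genes were compared and 593 were higher; 198 were higher and 108 lower in both pairs, 84 gained genes were higher, 952 within and 201 lower, and 148 lost genes were higher and 14 lower. The medians were -3.89 for streak, -2.59 for cardiac, -1.87 for blood, -2.59 for trophoblast, -2.56 for surface ectoderm, 0.29 for neural progenitor, 4.15 for proneural and -1.18 for Wnt genes. With no filter they were -0.18 for cardiac, 0.27 for neural progenitor, 1.12 for proneural, 0.51 for Hox and 0.32 for germ cell genes, since undetected members enter near 0.

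At a difference of 1.5 or more, 468 genes were higher and 267 lower. The share of genes with a peak was 15.2% of higher, 7.82% of lower and 15.6% of genes within 2-fold at 5 kb; it was 41.9%, 26.5% and 39.9% in the same order at 50 kb, and 11.3%, 6.93% and 11.3% with the higher scoring peaks. The neural crest median also changed sign with a filter of 5 FPKM, to -0.39.

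The difference in depth limits low values: 3 fragments in a gene of 2 kb are worth 0.0549 FPKM in induced day 2 against 0.0292 in control day 4, and 7 genes were listed at 0 in induced day 2 with 5 FPKM or more in control day 4, against 2 the other way.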

Other observations

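The next 12 genes in order of difference on each side, chosen after their values were seen, added other tissues' genes to the picture. Gcg, which encodes glucagon, had 19.1 FPKM in induced day 2 and was listed at 0 in control day 4, and the gut hormone gene Sct, secretin, had 30.4 against 0.617. Igfbpl1, an IGF-binding protein relative found in developing forebrain, had 53.2 against 1.88, Enox1, an electron transfer enzyme, 34.4 against 1.25, and the chromatin cofactor Arid5b 43.8 against 1.98. Sost, which encodes the BMP and Wnt antagonist sclerostin, had 14 against 0.019. Neurod1, Gbx2, Sox21, Ebf1 and A930038C07Rik completed the named genes of this group, with the transcript A930011O12Rik at 17 against 0.0629.

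On the lower side stood Alox15, a lipoxygenase, with 0.802 FPKM in induced day 2 against 30.5 in control day 4. Car4, a membrane carbonic anhydrase, had 8.03 against 146, Mogat2, an acyltransferase of fat absorption, 0.695 against 21.3, and Evx1, a homeobox factor of the streak, 0.201 against 19.2. Psmb8, a subunit of the immunoproteasome, had 0.693 against 25.9.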
